A study of Mus musculus with 9 samples.

Results

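The regions described are 5′ ends of small RNAs at which a single untemplated adenosine closed the 3′ end of part of the reads. An alignment counted towards such an end when it lay outside the mitochondrial chromosome, was 18 to 25 nt long, and differed from the mouse genome only at its last base, which was read as A. The 5′ ends with at least 100 such weight over the 9 libraries were kept, and 510 ends qualified. These were 510 of 20980 ends with any such alignment (2.43%), out of 2934387 ends outside the mitochondrial chromosome. The ends were therefore chosen on the measured A themselves, and the amounts that chose them are given as a description. The tail-A share of an end is the percentage of all weight at that 5′ end in a library that carried this A.

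Small RNA libraries made with different kits were compared in MIN6 cells, a mouse insulinoma line used as a model of the pancreatic beta cell. The cells were grown in 25 mM glucose with 10% serum and no further treatment. Illumina TruSeq (TS-GAIIx) and Illumina v1.5 (v1.5-GAIIx) libraries numbered 3 each, and a single NEXTflex V2 library (NF-HiSeq-6) was sequenced on another platform, at another facility and from other RNA. Liver RNA of 1 female C57BL/6J mouse, bought at 9 weeks, acclimated for 10 days, injected with saline 7 days before collection and fasted overnight, was used for 1 TruSeq (TS-HiSeq-ML) and 1 NEXTflex (NF-HiSeq-ML) library. Depth ran from 6889840 to 25545500 weighted alignments per library. In the liver libraries and in NF-HiSeq-6 there was no replicate, so their values carry only the counting error of reads, which had no molecular identifiers. The hepatocyte miRNA miR-122-5p stood at 16463 and 534948 RPM (weight per 1000000 of library weight) in TS-HiSeq-ML and NF-HiSeq-ML, at 128 in NF-HiSeq-6 and at 0.1 to 2.3 in the 6 GAIIx libraries. The beta cell miRNA miR-375-3p stood at 65002 to 179661 RPM in MIN6 and at 26.8 to 38.2 in liver.

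MicroRNAs are cut from hairpin precursors, and their 3′ ends can be extended after cutting by enzymes that need no template. Terminal nucleotidyltransferases of the TENT2 type add adenosine to mature miRNAs, with liver miR-122 as a well known substrate, while TUT4 and TUT7 add uridine, among others to let-7 precursors. The 7SL RNA of the signal recognition particle is also known to carry a post-transcriptional 3′ adenosine.

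The sequences of 8 let-7 family ends are shown first because these ends share a seed and yet differed in how the A was distributed. Each is written from the 5′ end to the genomic base that the commonest A replaced, with the seed (bases 2 to 8) and that last base in capitals, from RefSeq on GRCm38.p6.
let-7a-5p: uGAGGUAGuagguuguauaguuU
let-7b-5p: uGAGGUAGuagguugugugguuU
let-7c-5p: uGAGGUAGuagguuguaugguuU
let-7d-5p: aGAGGUAGuagguugcauaguuU
let-7f-5p: uGAGGUAGuagauuguauaguuU
let-7g-5p: uGAGGUAGuaguuuguacaguuU
let-7i-5p: uGAGGUAGuaguuugugcuguuG
miR-98-5p: uGAGGUAGuaaguuguauuguuG
These lie in the Mirlet7a-2 (chr9:41536732-41536754, plus strand), Mirlet7b (chr15:85707325-85707347, plus), Mirlet7c-1 (chr16:77599672-77599694, plus), Mirlet7d (chr13:48536077-48536099, minus), Mirlet7f-2 (chrX:151912353-151912375, plus), Mirlet7g (chr9:106178846-106178868, plus), Mirlet7i (chr10:122985697-122985719, minus) and Mir98 (chrX:151913229-151913251, plus) hairpins. In all 8 the commonest A fell on base 23, 1 nt past the commonest exact end. In the copies shown the replaced base was U in 6 and G in let-7i-5p and miR-98-5p, while the Mirlet7f-1 copy of let-7f-5p has G in that place.

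Other ends whose sequences bear on the comparisons are the pair of miR-101 ends that carried much A in liver, some of the ends that separated the kits, and an end inside 7SL RNA.
miR-101a-3p: uACAGUACugugauaacugaaG
miR-101b-3p (+1): uACAGUACugugauagcugaaG
miR-27b-3p: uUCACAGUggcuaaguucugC
miR-22-3p: aAGCUGCCaguugaagaacuguU
miR-99a-5p: aACCCGUAgauccgaucuugugG
miR-125b-5p: uCCCUGAGacccuaacuugugaU
miR-29c-3p: uAGCACCAuuugaaaucgguuaU
miR-140-3p: uACCACAGgguagaaccacggaC
7SL RNA Rn7s1, base 281: auagcgagaccccgucucuU
They lie at Mir101a (chr4:101346956-101346977, minus), Mir101b (chr19:29135339-29135360, plus), Mir27b (chr13:63300760-63300780, plus), Mir22 (chr11:75463772-75463794, plus), Mir99a (chr16:77598940-77598962, plus), Mir125b-1 (chr9:41581940-41581962, plus), Mir29c (chr1:195037600-195037622, plus), Mir140 (chr8:107551288-107551310, plus) and Rn7s1 (chr12:69159575-69159594, plus) of GRCm38. A number in brackets after a miRNA, as in miR-101b-3p (+1), gives how many nt the 5′ end lies downstream of the annotated start. For 7SL, taken from the GENCODE annotation, only the replaced base is in capitals.

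The 510 ends held 98.4% of all tail-A weight, and 349 of them lay on miRNAs. These 349 ends carried 98.3% of the weight of the 510 and belonged to 242 miRNAs, with 191 ends on 5p arms and 158 on 3p arms. The annotated start was used by 261 of them and a shifted start by 86. Another 29 ends lay on other small RNAs, of which 16 were on 7SL RNA, 11 on snoRNAs and 2 on Y RNAs, and 132 ends with 1.31% of the weight could not be named. Because identical precursor copies share reads, the 510 ends formed 417 groups of copies, with up to 10 copies in a group. The weight was uneven, from 100 to 1271230 with a median of 362. miR-122-5p alone held 38.3% of all tail-A weight and the heaviest 12 ends held 62.3%. These values rest on NF-HiSeq-ML. Without it miR-122-5p held 1.88%, the heaviest 12 ends 39.0% and the heaviest end, miR-375-3p, 8.58%. The lightest ends inside the limit were miR-10a-5p (-1) and base 2 of the snoRNA Gm25894, with 100 each, and the heaviest outside it were 2 unnamed ends on chromosome 2 with 98.4 each.

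A mismatch to A inside the reads was rare at these ends. Over the ends, a mismatch to A at bases 10 to 15 took 0.0214% of weight per base on average, while an A at the last base, which the choice of ends required, took 3.70%. Among 2042 combinations of end and read length that held the A, 1035 held 3 different untemplated last letters and 0 held all 4, so the genomic base at each place was never listed as an addition. At the 302 ends placed on RefSeq hairpins, the replaced base was U in 135, C in 84, G in 83 and A in 0. The 0 for A was fixed by the placement, which required letters that did not contradict the annotated base. An A added where the genome also has A would match the genome and was not visible. Where the base after the commonest exact end was A, the median tail-A share over the libraries was 1.74% (52 ends), compared with 3.17% for C (66 ends), 3.18% for G (83 ends) and 3.15% for U (101 ends).

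The A most often extended the miRNA by 1 nt. Among 502 ends with an exact alignment, the commonest A stood 1 nt past the commonest exact end in 248, at that end in 128, and 2 nt past it in 60. By weight, without miR-122-5p, the A stood 1 nt past the end in 69.7 to 70.6% in TS-GAIIx, 80.5 to 80.8% in v1.5-GAIIx and 78.5% in NF-HiSeq-6. It did so in 48.6% in TS-HiSeq-ML and 64.3% in NF-HiSeq-ML, both below every MIN6 library. With miR-122-5p counted, TS-HiSeq-ML was at 52.4% but NF-HiSeq-ML at 87.2%, above every MIN6 library (69.7 to 80.8%). Without miR-122-5p the A more often took the place of the last templated base in liver. This held 27% and 24% of weight in TS-HiSeq-ML and NF-HiSeq-ML and 9.1 to 14.7% in MIN6. With miR-122-5p counted the liver values were 24.9% and 7.46%, the latter below every MIN6 library. Untemplated uridine was the other common letter. U was the commonest untemplated last base at 54.5 to 57.8% of ends in TS-GAIIx and A at 35.7 to 38.4%. In contrast, A led at 51.1 to 51.7% in v1.5-GAIIx, 48.4% in NF-HiSeq-6 (U at 42.4%), 50.5% in TS-HiSeq-ML and 58.9% in NF-HiSeq-ML. These ends were chosen for their A, which favours A in such a count. By weight summed over the ends, U exceeded A in every library but NF-HiSeq-ML. U and A took 4.17 to 4.36% and 2.16 to 2.28% in v1.5-GAIIx, and 7.29% and 4.61% in TS-HiSeq-ML.

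**Figure D1:**
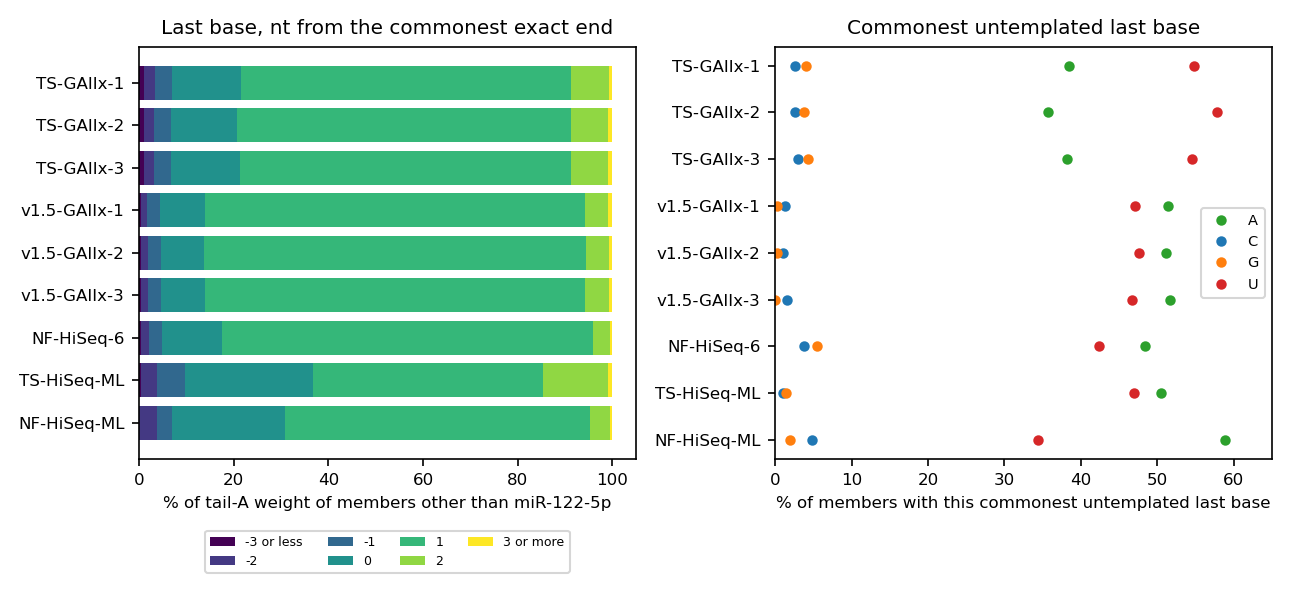
Left, percentage of tail-A weight (all ends but miR-122-5p) by distance in nt of the A from the commonest exact 3′ end in each library. Right, percentage of ends whose commonest untemplated last base was A, C, G or U; the TS-GAIIx libraries alone have U above 54% and A below 39%.

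Tail-A alignments made up 0.991%, 1.04% and 1.06% of the 3 TS-GAIIx libraries, 1.70%, 1.79% and 1.88% of the 3 v1.5-GAIIx libraries and 1.68% of NF-HiSeq-6. They made up 2.22% of TS-HiSeq-ML and 11.1% of NF-HiSeq-ML, or 2.07% and 5.23% without miR-122-5p. Every v1.5-GAIIx library thus lay above every TS-GAIIx library and both liver libraries lay above all MIN6 libraries. The median end with at least 100 weight in the library was at 1.64 to 1.71% in TS-GAIIx, 2.18 to 2.28% in v1.5-GAIIx, 1.98% in NF-HiSeq-6, 4.41% in TS-HiSeq-ML and 4.32% in NF-HiSeq-ML. The order of the liver libraries by this median turned over the ends on miRNAs (4.69% and 5.07%), with whole-number weights (4.11% and 4.21%) and with each other denominator tried. The place of NF-HiSeq-6 turned with the ends counted. Over the ends on miRNAs its median was 1.26%, below the 1.59 to 1.69% of TS-GAIIx, and with whole-number weights, which drop reads shared by copies, it was 1.02% against 1.75% in TS-GAIIx. An untemplated last G moved the other way between the Illumina kits, with 2.69 to 3.05% of weight in TS-GAIIx and 0.064 to 0.067% in v1.5-GAIIx. It was heavy at miR-375-3p, where G took 15.2 to 15.4% of the weight in TS-GAIIx and at most 0.0293% in v1.5-GAIIx. The part of this G in the tail-A shares was not tested.

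Untemplated letters other than A were scarce at most ends in the NEXTflex libraries. At the median end with at least 100 weight, U took 0.0478% in NF-HiSeq-6 and 0.0145% in NF-HiSeq-ML, and C and G 0. U took 1.54 to 3.35% at the median end of the other libraries. Many ends in the NEXTflex libraries also held no A at all. Among ends with at least 1000 weight, 42 of 277 (15.2%) were without it in NF-HiSeq-6 and 12 (7.89%) in NF-HiSeq-ML, while TS-HiSeq-ML had 4 of 171, v1.5-GAIIx-1 had 1 of 258 and the other 5 GAIIx libraries had 0. Over all ends with at least 1000 weight, whether members or not, 55.7% held no A in NF-HiSeq-6, 62.9% in NF-HiSeq-ML, 58.0% in TS-HiSeq-ML, 43.8 to 54.8% in TS-GAIIx and 30.3 to 37.7% in v1.5-GAIIx, so TS-HiSeq-ML was there above NF-HiSeq-6. At the other extreme, 59 ends (38.8%) in NF-HiSeq-ML exceeded 10%, as did 23 of the 277 in NF-HiSeq-6, 33 of the 171 in TS-HiSeq-ML, 1 to 3 in each TS-GAIIx library and 6 in each v1.5-GAIIx library. Over all ends with at least 1000 weight the percentages above 10% were 14% in NF-HiSeq-ML, 3.19% in NF-HiSeq-6, 3.64% in TS-HiSeq-ML and 0.25 to 1.13% in the GAIIx libraries.

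miR-122-5p is the dominant miRNA of hepatocytes. Its tail-A share was 11.3% in TS-HiSeq-ML (95% Wilson interval 11.2 to 11.4%), 16.2% in NF-HiSeq-ML (16.1 to 16.2%) and 13.4% in NF-HiSeq-6 (12.3 to 14.6%), where its weight was 3265. Too few reads fell on it in the GAIIx libraries to give a share. An untemplated U at this end took 2.17%, 1.63% and 0.919% in the same order, so that A was the commoner addition in all 3. The level of miR-122-5p was 128 RPM in NF-HiSeq-6 and 0.1 to 2.3 RPM in the GAIIx libraries. The source of the NF-HiSeq-6 reads was not tested.

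The beta cell miRNA miR-375-3p, which restrains insulin secretion, was abundant in every MIN6 library. Its tail-A share was 1.79%, 1.73% and 1.85% in TS-GAIIx, 1.68%, 1.80% and 1.86% in v1.5-GAIIx, 1.13% in NF-HiSeq-6, 4.10% in TS-HiSeq-ML and 0.521% in NF-HiSeq-ML. The Illumina kits overlapped, with a log2 difference of -0.01 ± 0.03 (SE), and the difference was not called. It was called with TMM factors (-0.26) and with DESeq2 size factors (-0.23). The liver values rest on the low miR-375-3p level given above.

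The share at each 5′ end was compared between v1.5-GAIIx and TS-GAIIx to ask whether 2 kits read the same cells alike. edgeR's quasi-likelihood test, with the weight of all alignments at the end as offset, was run on 1039 ends with at least 1000 weight over the 6 libraries. Of these ends, 18.5% were higher and 10.6% lower in v1.5-GAIIx at an adjusted p under 0.05. The share of called ends that rose was 63.6%, but limma called 233 ends higher and 280 lower, and with TMM factors of the tail-A weights the share was 51.7%. Among the 510 ends, 357 were tested, of which 37.5% were higher, 21.8% (78 ends) lower and 145 not called. The remaining 153 were too light. Because these ends were chosen for their A in the same libraries, their count is not independent of the choice and is given as a description. Whether called or not, v1.5-GAIIx lay wholly above TS-GAIIx at 156 of the tested members (43.7%) and wholly below at 84 (23.5%), beside 32.4% and 14.3% of all ends tested. A difference of more than 2-fold was found for 91 of the higher and 49 of the lower, and the median log2 difference was 0.26 over the tested members and 0.71 over all ends. The median over all ends moved to 0.16 with DESeq2, -0.02 with limma, 0.48 with TMM factors and 1.31 without a weight filter, while the members' median was 0.24 and 0.20 with DESeq2 and limma. TMM factors shifted the members' median to 0.003 and left 108 higher, so that the share of called members that rose, 63.2% or 51.2%, depends on the scaling. Ends chosen on the 3 HiSeq libraries alone, which this comparison did not use, gave 84 higher and 50 lower among 226 tested. The labels call the libraries replicates without saying how they were separated, so the p-values measure the spread between these libraries.

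**Figure D2:**
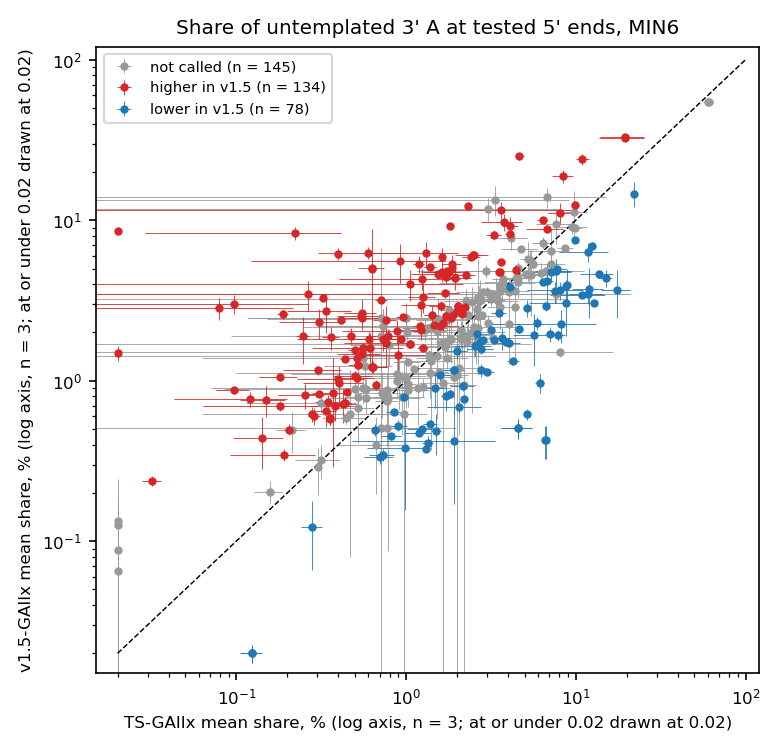
Mean tail-A share (%, log axes, n = 3, bars are SD) at the 357 tested ends in TS-GAIIx (x) and v1.5-GAIIx (y), with the dashed line at equality. The ends called higher in v1.5-GAIIx (37.5%) are red, the 78 called lower blue and the 145 not called grey, and points at or under 0.02% are drawn at 0.02%.

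The let-7 family is known to repress growth-promoting genes. Among 29 let-7 and miR-98 ends, 21 were tested, of which 9 were higher and 1 lower in v1.5-GAIIx. The lists of ends are to be read beside the 18.5% higher and 10.6% lower of all ends tested and the 37.5% and 21.8% of the tested members, and the lists were not tested. let-7i-5p stood apart. Its share was 2.28%, 2.37% and 2.30% in TS-GAIIx, 11.8%, 12.3% and 12.6% in v1.5-GAIIx, 2.35% in NF-HiSeq-6, 24.4% in TS-HiSeq-ML and 19.6% in NF-HiSeq-ML. The v1.5-GAIIx and liver values were all at least several times the TS-GAIIx and NF-HiSeq-6 values, and the log2 difference between the Illumina kits was 2.40 ± 0.04 (SE), called by edgeR. The call was lost with whole-number weights, at 2.51. U additions to let-7i-5p also differed, at 2.64 to 2.78% in TS-GAIIx and 13.3 to 14.2% in v1.5-GAIIx, but at 13.1% in NF-HiSeq-6. miR-98-5p and let-7e-5p, where the replaced base is also G, were chosen for mention after their values were seen. miR-98-5p stood at 1.73%, 1.81% and 1.87% in TS-GAIIx and 8.77%, 9.17% and 9.63% in v1.5-GAIIx, a log2 difference of 2.34 ± 0.06 (SE). let-7e-5p stood at 2.75%, 2.94% and 2.68% in TS-GAIIx and 2.57%, 2.58% and 2.58% in v1.5-GAIIx and was not called.

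The other let-7 ends named differed less between the kits than let-7i-5p and miR-98-5p. let-7a-5p was at 1.69%, 1.78% and 1.69% in TS-GAIIx and 2.47%, 2.56% and 2.54% in v1.5-GAIIx, without overlap, with a log2 difference of 0.55 ± 0.04 (SE). With whole-number weights the difference was 1.73 and was not called. let-7d-5p was at 3.83%, 3.60% and 3.45% in TS-GAIIx and 5.30%, 5.48% and 5.65% in v1.5-GAIIx (0.60 ± 0.04), again without overlap. let-7b-5p was at 4.14%, 4.0% and 4.19% in TS-GAIIx and 3.62%, 3.84% and 4.03% in v1.5-GAIIx. Its values overlapped and its log2 difference of -0.11 ± 0.04 (SE) passed the test with an adjusted p of 0.026 by edgeR. This call was lost with DESeq2, with limma, under both other weight filters, with whole-number weights, and without TS-GAIIx-1, TS-GAIIx-3, v1.5-GAIIx-1 or v1.5-GAIIx-2 (log2 -0.067 to -0.14 over the fits that left out a library). let-7f-5p and let-7g-5p rose by 0.41 and 0.44 on the log2 scale. Both calls were lost with limma, and that of let-7f-5p also with whole-number weights, at 1.77. let-7c-5p differed by 0.07 with an adjusted p of 0.20 by edgeR.

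The miR-232724 clusters, which include regulators of lipid metabolism, had 8 of 12 tested ends higher and 0 lower in v1.5-GAIIx, beside 18.5% and 10.6% of all ends tested. miR-27b-3p had 0.33%, 0.33% and 0.32% in TS-GAIIx and 3.16%, 3.32% and 3.37% in v1.5-GAIIx, a log2 difference of 3.33 ± 0.04 (SE). The 3 values of each kit lay far from those of the other. miR-24-3p, whose commonest addition was U at 28.5 to 45.1% over all 9 libraries, had A at 2.07%, 2.06% and 1.98% in TS-GAIIx and 2.89%, 2.95% and 2.98% in v1.5-GAIIx. The difference of 0.54 ± 0.09 (SE) on the log2 scale was called, but it was -0.91 with whole-number weights. miR-22-3p had 0.18%, 0.18% and 0.20% in TS-GAIIx and 2.39%, 2.68% and 2.77% in v1.5-GAIIx, a log2 difference of 3.77 ± 0.06 (SE). miR-27b-3p and miR-22-3p were chosen for mention after their values were seen.

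Several other well known ends also rose. miR-21a-5p, abundant in many tumours, was at 0.853%, 1.03% and 1.01% in TS-GAIIx and 2.40%, 2.54% and 2.53% in v1.5-GAIIx (log2 1.35 ± 0.07). miR-26a-5p was at 0.537%, 0.551% and 0.576% in TS-GAIIx and 1.54%, 1.58% and 1.67% in v1.5-GAIIx (1.52 ± 0.06), but its log2 difference was -0.96 with whole-number weights. miR-141-3p, an epithelial miRNA of the miR-200 family, was at 0.429%, 0.408% and 0.398% in TS-GAIIx and 2.22%, 2.48% and 2.48% in v1.5-GAIIx (2.55 ± 0.04). The kits did not overlap at any of these 3 ends. The miR-200 and miR-141 list had 6 of 11 tested ends higher and 3 lower, the miR-30 list 7 of 12 higher and 1 lower, and the miR-15/16 list 5 of 7 higher and 1 lower, beside the same 18.5% and 10.6% of all ends. miR-30e-5p was at 0.207%, 0.216% and 0.189% in TS-GAIIx and 0.467%, 0.484% and 0.538% in v1.5-GAIIx (1.30 ± 0.08). miR-378-3p differed by 0.03 ± 0.06 on the log2 scale and was not called.

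The largest rises were found where the TS-GAIIx libraries held almost no A. miR-99a-5p had 0 in each TS-GAIIx library and 8.69%, 8.12% and 8.98% in v1.5-GAIIx. With 874 weight over the 3 TS-GAIIx libraries, a floor of 3 counts over the group allows a share of up to 0.343%, so the v1.5-GAIIx share was at least 25.0-fold higher. NF-HiSeq-6 stood at 26.9%, NF-HiSeq-ML at 28.7% and TS-HiSeq-ML at 4.64%, so both NEXTflex libraries lay above the others. miR-376b-5p, also at 0 in all 3 TS-GAIIx libraries, was at 1.33%, 1.47% and 1.66% in v1.5-GAIIx, at least 4.05-fold higher. miR-376a-5p stood at 0.314%, 0 and 0.351% in TS-GAIIx and at 8.61%, 8.93% and 7.47% in v1.5-GAIIx. miR-497a-5p, miR-22-5p and miR-191-5p (+1) completed the 6 largest rises, with TS-GAIIx shares of at most 0.417% and v1.5-GAIIx shares from 2.58 to 6.76%. The weight of A outside v1.5-GAIIx was 0 at miR-376b-5p, 3 at miR-376a-5p and 34 at miR-22-5p, so these 3 ends passed the limit of 100 through the libraries where they are high, and their rises are a description. Beside miR-99a-5p, miR-497a-5p was at 4.46% in NF-HiSeq-6. The remaining 4 were at 0 there, which allows up to 0.430% at miR-376a-5p, 1.16% at miR-376b-5p, 0.258% at miR-22-5p and 2.05% at miR-191-5p (+1), and miR-22-5p was also at 0 in NF-HiSeq-ML (up to 0.334%).

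The largest fall was at miR-125b-5p, from the miR-10, miR-99, miR-100 and miR-125 group. Its share was 6.84%, 6.31% and 6.85% in TS-GAIIx, 0.465%, 0.313% and 0.496% in v1.5-GAIIx, 0.0181% in NF-HiSeq-6, 19.9% in TS-HiSeq-ML and 5.57% in NF-HiSeq-ML. The TS-GAIIx values lay above all v1.5-GAIIx values, and the log2 difference was -3.95 ± 0.29 (SE), called by edgeR. G additions at this end moved with it, at 8.30 to 10.0% in TS-GAIIx and at most 0.0872% in v1.5-GAIIx. miR-29c-3p was at 4.95%, 5.23% and 5.37% in TS-GAIIx and 0.624%, 0.570% and 0.664% in v1.5-GAIIx (-3.08 ± 0.08). miR-140-3p was at 6.45%, 5.69% and 6.27% in TS-GAIIx and 0.827%, 1.00% and 1.08% in v1.5-GAIIx (-2.66 ± 0.15). Neither overlapped between the kits. miR-103-3p, Snord14c and miR-487b-3p (hairpin base 51) fell by 3.06, 3.17 and 2.18 on the log2 scale, miR-103-3p from shares of at most 0.142%. The weight of A outside TS-GAIIx was 20 at miR-487b-3p (hairpin base 51), which thus passed the limit of 100 through the libraries where it is high, and its fall is a description. By list, falls outnumbered rises for the miR-10, miR-99, miR-100 and miR-125 group (4 lower and 1 higher of 7 tested), miR-7 (3 and 0 of 4), miR-29 (3 and 2 of 6) and the miR-103 and miR-107 pair (2 and 0 of 3), in lists too small to set against the 10.6% lower and 18.5% higher of all ends.

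The imprinted Dlk1-Dio3 cluster had 18 of 39 tested ends higher and 11 lower, beside 18.5% and 10.6% of all ends and 37.5% and 21.8% of members, and the miR-17~92 and miR-106b~25 clusters 3 of 9 higher and 0 lower. The counts of higher and lower were 2 and 1 of 6 for miR-26, 2 and 1 of 6 for miR-181, 1 and 2 of 4 for miR-130 and miR-301, 1 and 2 of 4 for miR-148 and miR-152, 3 and 0 of 4 for miR-192 and miR-194, and 1 and 1 of 5 for the miR-183, miR-96 and miR-182 cluster. None of the 4 miR-375 ends was called. Among tested 5p arms 72 ends (47.4%) were higher and 27 lower, and among 3p arms 49 of 147 (33.3%) were higher and 39 lower. The difference between the arms was not tested.

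**Figure D3:**
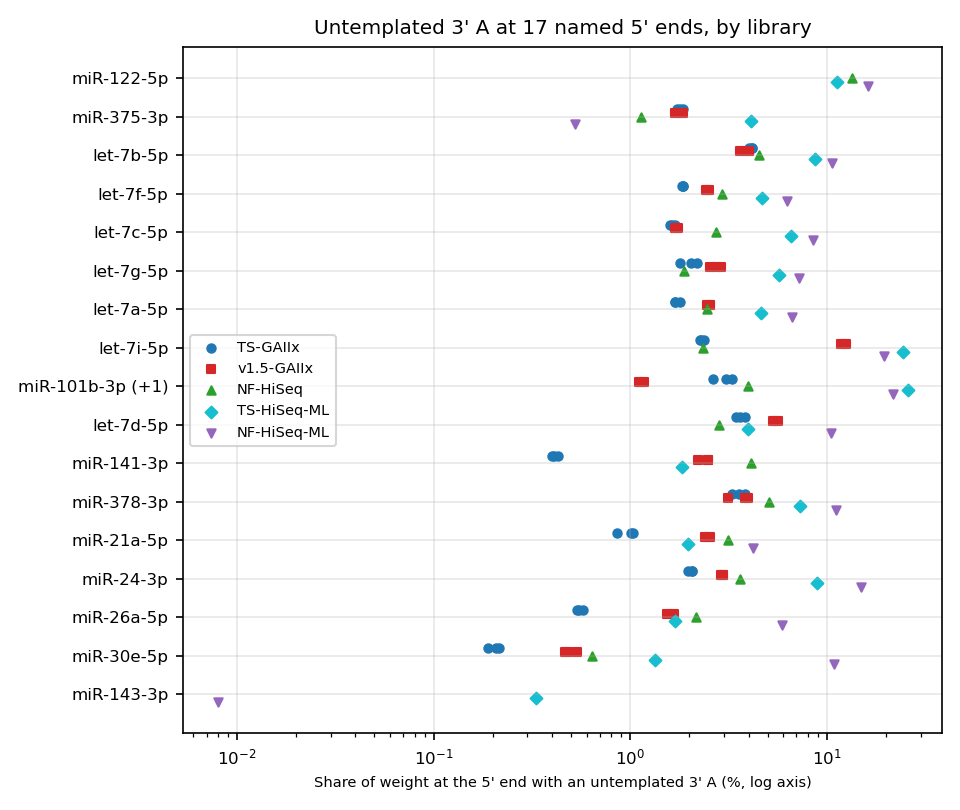
Tail-A share (%, log axis) at 17 named 5′ ends in each library with at least 100 weight at the end, coloured by kit and tissue. Both liver libraries lie above all MIN6 libraries at let-7i-5p, let-7b-5p, let-7c-5p and miR-24-3p, while let-7i-5p, miR-141-3p, miR-21a-5p and miR-26a-5p separate v1.5-GAIIx from TS-GAIIx.

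The liver libraries were set against MIN6 within each kit. Tissue cannot be told apart from the 1 animal or, in TruSeq, from the platform, which was GAIIx for MIN6 and HiSeq for liver. Nor can it be told apart from RNA extraction in TruSeq. The paper reports TRIzol at NIH, where TS-GAIIx was run, and a Norgen kit for liver. Both NEXTflex libraries were sequenced on HiSeq. Ends with at least 1000 weight in each library and more than 3 counts of A on a side were compared, with no test, and a side under 3 counts was set at 3. In TruSeq, 73 of 93 members were more than 2-fold higher in liver than over the 3 TS-GAIIx libraries and 2 were more than 2-fold lower. The background over all ends compared was 79.6% and 2.04%, so the members' share was near it. The median fold was 2.98 over members and 3.02 over all ends. In NEXTflex, 82 of 120 were higher and 15 lower, beside 66.7% and 13.8% of all ends, with median folds of 3.68 and 3.45. Of 73 ends compared in both kits, 53 were higher in liver in both, 0 were lower in both and 2 went opposite ways. Ends chosen on the 7 MIN6 libraries alone gave 68 of 86 higher and 2 lower in TruSeq, and 69 of 104 higher and 13 lower in NEXTflex. Blood cell miRNAs moved with the tissue. The sum of miR-451a and miR-486a-5p was 6121 and 1711 RPM in TS-HiSeq-ML and NF-HiSeq-ML and 2.2 to 35.9 in MIN6, no end was found for miR-144-3p, and the part of blood in the shares was not tested.

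The miR-101 ends, whose miRNA represses the histone methyltransferase gene Ezh2, were among the highest in liver. miR-101b-3p (+1) was at 2.63%, 3.06% and 3.27% in TS-GAIIx, 1.11%, 1.18% and 1.13% in v1.5-GAIIx, 3.96% in NF-HiSeq-6, 25.7% in TS-HiSeq-ML and 21.6% in NF-HiSeq-ML. Both liver values were several times every MIN6 value. Against MIN6 of the same kit, pooled for TruSeq, they were 8.44-fold higher in TruSeq and 5.47-fold in NEXTflex, and v1.5-GAIIx was below TS-GAIIx by a log2 difference of -1.42 ± 0.15 (SE). miR-101b-3p was at 1.08 to 2.03% in TS-GAIIx, 1.91 to 2.44% in v1.5-GAIIx, 10.5% in NF-HiSeq-6, 28.1% in TS-HiSeq-ML and 38.2% in NF-HiSeq-ML. miR-101a-3p, with the same seed as miR-101b-3p (+1), was at 2.33 to 3.29%, 1.46 to 1.66%, 2.09%, 28.9% and 31.0% in the same order. The miR-101 list was added after the values were seen. Over its 5 ends 3 fell and 1 rose in v1.5-GAIIx, and all 4 compared in each kit were more than 2-fold higher in liver.

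miR-28-3p had the highest share of any named miRNA in the TruSeq liver library. It was at 12.4%, 12.6% and 12.5% in TS-GAIIx, 6.83%, 7.39% and 6.51% in v1.5-GAIIx, 83.0% in TS-HiSeq-ML (95% Wilson interval 82.2 to 83.7%) and 50.3% in NF-HiSeq-ML (48.7 to 51.9%). In NF-HiSeq-6 it was 0 of 4272, which allows a share of up to 0.0702%. The NEXTflex liver share was therefore at least 716-fold above NF-HiSeq-6, while the GAIIx libraries of the same cell line lay in between. v1.5-GAIIx lay below TS-GAIIx without overlap (log2 -0.86 ± 0.16).

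Most let-7 ends compared were higher in liver. let-7i-5p was 10.5-fold higher in liver in TruSeq and 8.36-fold in NEXTflex, let-7c-5p 4.02-fold and 3.12-fold, let-7b-5p 2.12-fold and 2.33-fold, and let-7a-5p 2.71-fold and 2.69-fold. Over the family, 12 of 13 ends compared in TruSeq and 18 of 22 in NEXTflex were more than 2-fold higher in liver, with 0 and 2 more than 2-fold lower. let-7d-5p was 1.10-fold higher in TruSeq and 3.71-fold in NEXTflex. miR-24-3p was at 8.91% in TS-HiSeq-ML and 14.9% in NF-HiSeq-ML, 4.40-fold and 4.13-fold above MIN6 of the same kit. All 3 miR-15/16 ends compared in TruSeq and all 4 in NEXTflex were also higher past 2-fold, as were 3 of 3 and 3 of 3 for miR-26, 6 of 7 and 5 of 5 for miR-232724, and 4 of 4 and 2 of 3 for miR-181. The counts in TruSeq and NEXTflex were 3 of 7 and 6 of 9 for miR-30, 1 of 3 and 4 of 6 for the miR-17~92 and miR-106b~25 clusters, 2 of 4 and 1 of 3 for miR-148 and miR-152, and 1 of 2 and 2 of 4 for miR-192 and miR-194. The lists are small, and their counts lay on both sides of the 79.6% and 66.7% of all ends compared.

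**Figure D4:**
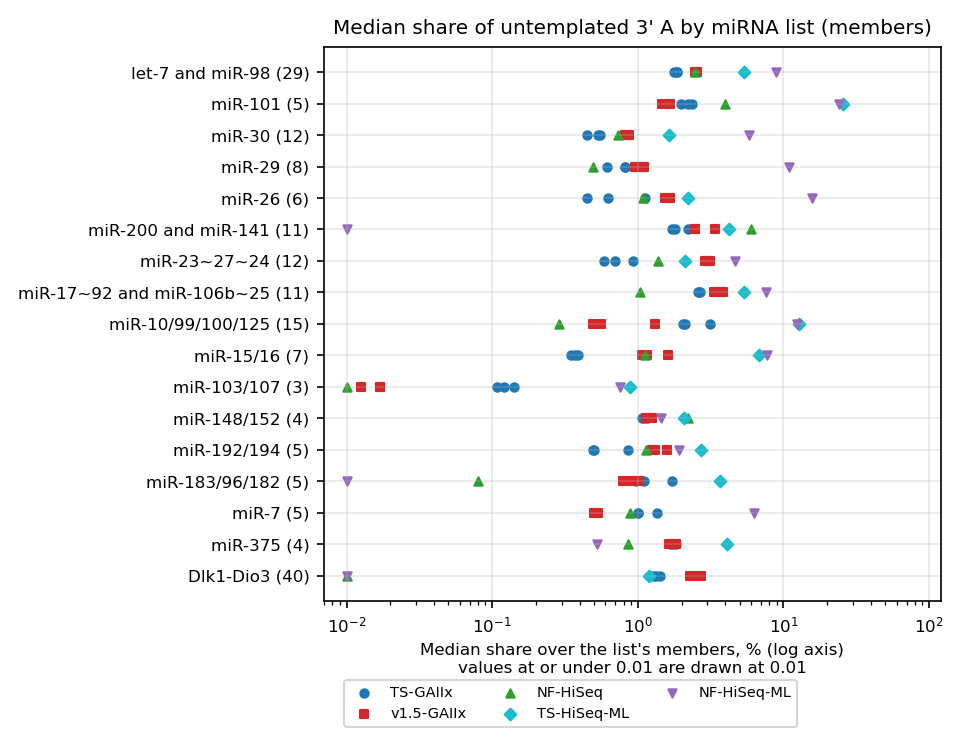
Median tail-A share (%, log axis) over the ends of each miRNA list in each library, with the number of ends of the list in brackets and values at or under 0.01% drawn at 0.01%. Liver points lie to the right of MIN6 for let-7, miR-101, miR-15/16, miR-26 and miR-30, and the 5 miR-101 ends reach medians above 24% in both liver libraries.

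Several folds in NEXTflex rested on ends that were almost without A in NF-HiSeq-6. miR-103-3p was at 0.00103% there, 0.756% in NF-HiSeq-ML and 0.888% in TS-HiSeq-ML. miR-29c-3p was at 0.00619% in NF-HiSeq-6 and 4.95 to 5.37% in TS-GAIIx. Among the members compared, 63 (40.9%) lay above the highest and 58 (37.7%) below the lowest of the 6 GAIIx libraries, beside 36.8% and 39.2% of all ends. Against the sum of TS-GAIIx, 49 of 163 members were more than 2-fold higher and 52 lower (28.7% and 33.3% of all ends). Against the sum of v1.5-GAIIx, 41 of 208 were higher and 79 lower (18% and 40.2%). The members' shares were near the background in each.

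Both liver libraries were made from the same RNA, so they compare the kits in 1 sample. Of 122 members, 32 were more than 2-fold higher in NEXTflex and 22 lower, beside 28.9% and 20% of all ends, and the median fold was 1.28. miR-22-3p was at 9.04% in NF-HiSeq-ML and 1.12% in TS-HiSeq-ML, miR-27b-3p at 6.69% and 1.35%, miR-191-5p at 18.5% and 1.84%, and miR-30e-5p at 10.8% and 1.33%. Lower in NEXTflex were miR-140-3p, at 1.74% and 22.2%, miR-125b-5p, at 5.57% and 19.9%, and miR-152-3p, at 9.70% and 27.5%. miR-191-5p and miR-152-3p were chosen for mention after their values were seen. These libraries are not among those of the v1.5-GAIIx and TS-GAIIx comparison. Of 51 ends called higher in v1.5-GAIIx and compared here, 20 were more than 2-fold higher in NEXTflex than in TruSeq and 6 lower. Of 26 called lower in v1.5-GAIIx, 1 was higher and 8 were lower, and of the 29 not called 8 were higher and 4 lower. This count is a description, since the ends include copies of the same precursor.

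Among the ends that were not miRNAs, 7SL RNA carried high shares in several libraries. Its 16 ends were 8 on each of the copies Rn7s1 and Rn7s2, beginning at bases 276 to 284, and the A stood at base 300 in 6 of the 8 and at the next base in 2. The end at base 281, whose sequence is given above, was at 88.4%, 85.6% and 85.7% in TS-GAIIx, 20.4%, 24% and 20.4% in v1.5-GAIIx, 89.4% in TS-HiSeq-ML and 98.6% in NF-HiSeq-ML, while NF-HiSeq-6 had 9 weight there. At this base the TruSeq libraries and the liver NEXTflex library were all high and v1.5-GAIIx low. The end at base 278 went the other way, at 18%, 19.8% and 19.2% in TS-GAIIx and 59.4%, 56.4% and 58.7% in v1.5-GAIIx, but the TS-GAIIx shares rest on 27.8, 32.8 and 49.5 weight. Both ends had under 1000 weight over the 6 libraries and were not tested. The end at base 282 was at 55.6 to 63.2% in TS-GAIIx and 52.0 to 57.0% in v1.5-GAIIx and was not called. The end at base 279 was at 24%, 13.1% and 21.1% in TS-GAIIx and 34.1%, 31.5% and 32.5% in v1.5-GAIIx, without overlap, and was called higher on both Rn7s1 and Rn7s2, which share reads (log2 0.73 ± 0.19 on Rn7s1). It was the called one of the 2 tested starts, on 81.2, 91.3 and 156 weight in TS-GAIIx. On Rn7s1, the weight of A outside v1.5-GAIIx was under the limit for choosing ends at both base 278 and base 279. Both starts thus passed that limit through the libraries where they are high, and their rises are a description. At base 279 NF-HiSeq-6 was at 0 of 364 and NF-HiSeq-ML at 0 of 61.5, and at base 276 NF-HiSeq-ML was at 0 of 50.5.

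Some ends had high shares in a single library. miR-146a-5p (-1) was at 96.7% in NF-HiSeq-6 (123 weight, 95% Wilson interval 91.9 to 98.7%), at 0.694 to 2.43% in the 6 GAIIx libraries, at 5.11% in TS-HiSeq-ML and at 0 in NF-HiSeq-ML. Base 1 of the snoRNA Gm25894 was at 65.7% in NF-HiSeq-6 and at no more than 0.235% in the GAIIx libraries. miR-186-5p (-1) was at 97.5% in NF-HiSeq-ML and 0 of 163 in TS-HiSeq-ML, which allows up to 1.84%. NF-HiSeq-ML was also above TS-HiSeq-ML at base 28 of Snord2 (69.0% and 1.08%) and at unnamed mm9 ends chr17 17967195 (91.0% and 25.1%), chr17 39983609 (96.8% and 0.815%) and chr16 77646562 (68.9% and 2.75%). At chr17 17967195 NF-HiSeq-6 was at 1.18% and the GAIIx libraries were at no less than 8.68%. Several of these ends were chosen through the library where they are high. Without NF-HiSeq-ML the weight of A was 30 at Snord2, 7 at chr17 39983609, 47 at chr16 77646562 and 49 at miR-186-5p (-1), and without NF-HiSeq-6 it was 6 at base 1 of Gm25894, so their high shares there are a description. Exact alignments took 0% at miR-146a-5p (-1) in NF-HiSeq-6. They also took 0% at miR-186-5p (-1), Snord2 and chr17 39983609 in NF-HiSeq-ML. The interval given for miR-146a-5p (-1) covers counting error only.

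The ends with the highest mean share in MIN6 also included miR-483-3p, a miRNA from an intron of the insulin-like growth factor gene Igf2. It was at 9.62%, 10.4% and 9.61% in TS-GAIIx, 11.9%, 13.2% and 12.2% in v1.5-GAIIx and 11.2% in NF-HiSeq-6. The kits lay close, with v1.5-GAIIx above TS-GAIIx by a log2 difference of 0.34 ± 0.10 (SE), adjusted p of 0.0026 by edgeR. The call was lost with limma, under both other scalings (0.081 and 0.11) and with whole-number weights. miR-384-3p (+1) was at 8.35%, 9.65% and 7.23% in TS-GAIIx, 21%, 17.6% and 17.8% in v1.5-GAIIx and 0 of 144 in NF-HiSeq-6, which allows up to 2.08%. In NF-HiSeq-6 an untemplated U took 95.1% at that end and exact alignments 0%. miR-423-3p (-1) rose by 0.48, a call lost with limma, under both other scalings (0.22 and 0.24), with whole-number weights and without v1.5-GAIIx-2 or v1.5-GAIIx-3, and miR-877-5p fell by 1.12 on the log2 scale in v1.5-GAIIx. Unnamed mm9 ends chr12 110918156 and chr3 108879835 had TS-GAIIx means of 12.2% ± 3.6 and 7.17% ± 1.5 (SD, n = 3) and v1.5-GAIIx means of 16.8% ± 2.2 and 5.30% ± 1.1, and the latter end was not called. miR-143-3p, a miRNA of smooth muscle and connective tissue, had 0.330% in TS-HiSeq-ML and 2 counts of A in NF-HiSeq-ML, where 3 counts are 0.0119%, and was too light in MIN6 to compare. Only 4 of its weight of A lay outside TS-HiSeq-ML, so it was chosen through that library.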

How the data were processed

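The authors trimmed adapters from Illumina reads with cutadapt, removed the degenerate end bases from NEXTflex reads, and mapped reads to mm9 (Bowtie is named in the submitters' processing notes, with no version). The deposited alignment lists give positions, an edit string and a weight, which is an expected count split over equally good positions. Weights were summed per 5′ end and library without rounding and are relative to all weight at the same end. The members, lists and tests were chosen with earlier results of these data known. An end was named by a RefSeq hairpin or GENCODE small RNA whose letters never contradicted the edit strings, or by matching weights to the study's list of miRNA ends, and 132 stayed unnamed. Alignments whose edit string was only a number were kept in the denominator. edgeR 4.0.16 (R 4.3.3) tested shares with an offset, Benjamini-Hochberg adjusted over 1039 ends, with limma 3.58.1 and DESeq2 1.42.0 as alternatives. Code was tested on simulated data. Single libraries were compared with Wilson intervals (statsmodels 0.14.6), which, like the 3-count floors, cover counting error only. Named ends were the 12 heaviest, the 8 with the highest mean share in MIN6 and the 8 in liver, the 6 largest rises and 6 largest falls without overlap, the ends at the weight limit and 9 fixed miRNAs. Same-numbered TS-GAIIx and v1.5-GAIIx libraries shared only a number (correlations of deviations 0.054, 0.002 and 0.001). No pair of replicates agreed within sampling noise.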

Additional observations from a re-analysis of the deposited data

Results flagged for a closer look

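The mitochondrial chromosome, which the rule leaves out, also held alignments with a single untemplated last A. They made up 5.58%, 5.24% and 6.35% of mitochondrial weight in the 3 TS-GAIIx libraries, 3.73%, 4.26% and 4.46% in the 3 v1.5-GAIIx libraries, 3.28% in NF-HiSeq-6, 1.24% in TS-HiSeq-ML and 2.98% in NF-HiSeq-ML. Here the TS-GAIIx libraries were the highest and TS-HiSeq-ML the lowest, an order unlike that of the nuclear ends, and the values were not tested. They were singled out because they lie outside the main measurement and above the level that a count of 0 allows.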

How the results depend on the processing

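Members numbered 334 with a minimum of 200 and 4262 when 100 weight of all alignments sufficed. The median share of members moved to 1.78% in TS-GAIIx and 2.38% in v1.5-GAIIx with alignments of 18 to 25 nt as the denominator, to 1.85%, 2.61%, 5.80% (TS-HiSeq-ML) and 6.27% (NF-HiSeq-ML) with exact alignments plus the A, and to 1.75%, 1.95% and 1.02% (NF-HiSeq-6) with whole-number weights. A 3-fold limit left 21 members higher in NEXTflex than in TruSeq liver. For v1.5-GAIIx against TS-GAIIx, whole-number weights, which drop reads shared by copies, gave 99 ends higher and 63 lower, and 79 and 50 members. limma gave 233 ends higher and 280 lower. Members chosen on the HiSeq libraries, an alternative added after seeing the data, gave 84 and 50. Leaving out a library gave at least 112 members higher and 67 to 77 lower, and 142 to 181 ends higher and 85 to 102 lower. With the replicate block, 135 members were higher and 80 lower (78 without it), and 175 and 104 ends, while the libraries share only a number. DESeq2 gave 123 and 71 members.

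Of 558 log2 values of 40 named ends, 505 kept their direction and call, 32 lost the call, 4 gained it and 17 changed sign. Those were miR-375-3p (0.017 and 0.032 without TS-GAIIx-3 or v1.5-GAIIx-1, range -0.039 to 0.032 over the fits that left out a library, while TMM and DESeq2 size factors gave the called -0.26 and -0.23), let-7c-5p (-0.18 with TMM, -0.15 with DESeq2 size factors, -1.04 with whole-number weights), miR-378-3p (-0.23, -0.20 and -0.94 under the same 3, and -0.024, -0.014 and -0.039 without TS-GAIIx-1, v1.5-GAIIx-1 or v1.5-GAIIx-3, up to 0.12), miR-24-3p (-0.91) and miR-26a-5p (-0.96) with whole-number weights, base 1 of Gm25894 (-0.90 with limma) and miR-146a-5p (-1) (0.19, 0.32 and 0.18 without TS-GAIIx-1, v1.5-GAIIx-2 or v1.5-GAIIx-3, down to -0.82). The cause was not tested. Depth limits the single libraries, where ends under 1000 weight were not compared.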
